A study of Homo sapiens with 77 samples.

Results

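The sgRNAs described here are directed against histone demethylases. They were taken from a pooled CRISPR-Cas9 knockout screen as all sgRNAs whose gene name starts with KDM, without KDM2B, together with those against UTY, JMJD6, PHF8 and PHF2. This gave 88 sgRNAs against 22 genes, 4 for each gene, out of 2306 sgRNAs in the chromatin-focused library, of which 50 are controls and 2256 are directed against 564 genes. The screen was run without drug treatment in Cas9-expressing cells of 2 established lines: KARPAS422, which derives from a DLBCL (diffuse large B cell lymphoma) and carries mutant EZH2, and K562, a chronic myeloid leukemia line with wildtype EZH2. Each line was sequenced once on day 0 and once on day 14. The tables identify sgRNAs by number only, so that target sequences and cut positions were not analysed here.

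Histone demethylases remove methyl groups from lysines of the histone tails and so oppose the methyltransferases that write them. KDM1A and KDM1B are flavin-dependent amine oxidases, whereas the other members carry a JmjC domain that uses iron and 2-oxoglutarate. Methylation of H3K4 and H3K36 marks active genes, and methylation of H3K9 and H3K27 marks repressed chromatin. Some demethylases act on more than one lysine, and each gene is described under a single class.

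For each sgRNA, the log2 change from day 0 to day 14 was computed from the raw counts and then shifted so that the control sgRNAs had a median of 0. A value of −1 stands for a 2-fold loss relative to the controls. A gene is scored by the median of its sgRNAs, which share their target and so are not replicates of a condition. Since each line has 1 library per day, the spread between cultures is unknown and nothing was tested. The libraries held 18275683 to 25031212 counts, and the median sgRNA against a demethylase had 6448 counts in KARPAS422 and 7679 in K562 on day 0. The spread of the control sgRNAs sets the precision. Among the 44 controls with at least 300 counts on day 0 in each line, the changes had an SD of 0.247 in KARPAS422 (from −0.728 to 0.562) and of 0.423 in K562 (from −0.980 to 0.957). The 6 controls that were rarer than this on day 0 in at least 1 line spread far more widely, between −7.15 and 2.40 over the 4 of them measured in K562. All intervals below are exact 95% intervals for counting error only.

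As a group, sgRNAs against demethylases were lost from KARPAS422 about as often as sgRNAs of the whole library. In KARPAS422, 32 of 87 measured demethylase sgRNAs (36.8%) had a change of −1 or lower, against 36.9% of all gene-directed sgRNAs. At the level of genes, 9 of 22 scored −1 or lower, against 32.6% of the library, and the median score of the 22 genes was −0.78, against −0.69 over all 564 genes. When changes were centred on all sgRNAs of the library in place of the controls, 2 of these 9 (KDM2A and KDM8) remained at −1 or lower. The 9 were KDM8, KDM2A, JMJD6, KDM4D, KDM5C, PHF8, KDM4A, PHF2 and KDM4B. KDM4B at −1.01 was the nearest inside this limit and KDM5A at −0.92 the nearest outside it. All 22 genes scored below the controls, which no longer holds when changes are centred on all sgRNAs, and so did most of the library, whose gene-directed sgRNAs had a median of −0.70 relative to the controls. None of the 87 sgRNAs had a change of 1 or higher, a level reached by 0.402% of the library. Of the 82 demethylase sgRNAs with at least 300 counts on day 0, 40 lay below the lowest control of that abundance, and 48.2% of gene-directed sgRNAs did so.

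In K562 the changes were smaller. There, 12 of 87 measured sgRNAs had a change of −1 or lower, against 11.9% of the library, and the median gene score was −0.17, against −0.23 over all genes. The 3 genes of 22 (13.6%) that scored −1 or lower, against 4.08% of the library, were KDM6A, JMJD6 and PHF2. Of these, only KDM6A remained when centred on all sgRNAs or without the lowest sgRNA of each gene. PHF2 at −1.07 was the nearest inside the limit and KDM3B at −0.74 the nearest outside it. Of 82 demethylase sgRNAs with at least 300 counts, 10 lay below the lowest control of that abundance, against 11.2% of the library. A change of 1 or higher was seen for 2 sgRNAs, 1 each against KDM4D and KDM5D, against 1.39% of the library. Thus by the share of sgRNAs at the −1 limit and by the medians the set stood near the library in both lines, and differences lay between individual genes. The share of genes at −1 or lower was above that of the library, at 40.9% in KARPAS422 and 13.6% in K562, and was not tested. The largest losses were fewer in KARPAS422, where 2 of 87 sgRNAs lay below the lowest of all controls (−2.58), against 13.2% of the library.

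The lowest demethylase scores in KARPAS422 belonged to both genes of the H3K36 class. KDM8 (also called JMJD5) is a JmjC protein for which demethylation of H3K36me2 has been proposed, and its role as a histone demethylase is debated. In hg38 the gene spans 27203508 to 27221768 on the plus strand of chromosome 16. Its 4 sgRNAs went from 14243 to 6540, from 26777 to 8904, from 8148 to 2653 and from 22791 to 7275 counts. All 4 were thus abundant on day 0, and all were lost to a similar degree, with changes of −1.77, −2.24, −2.27 and −2.30. The score of −2.25 means a 4.77-fold loss relative to the controls and was rank 90 from the lowest of 564 genes. In K562 the same sgRNAs changed by −0.78, −0.66, −0.49 and −0.63, a score of −0.64 at rank 86 from the lowest. The range over the 4 sgRNAs was 0.525 in KARPAS422 and 0.299 in K562, and the lines did not overlap, also when centred on all sgRNAs. Relative to the controls, the lines likewise did not overlap for other demethylase genes, such as KDM5A and KDM4A. For both of these they did overlap when changes were centred on all sgRNAs. The share of library genes without overlap was not computed, and 87.6% of them scored lower in KARPAS422.

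KDM2A, an H3K36me2 demethylase that binds unmethylated CpG islands through a CXXC domain, scored −2.04 in KARPAS422, at rank 100 from the lowest. In hg38 the gene spans 67119263 to 67258082 on the plus strand of chromosome 11. Its sgRNAs went from 1703 to 976, from 219 to 12, from 5206 to 2690 and from 11031 to 3120 counts in KARPAS422. This gives changes of −1.45, −4.74, −1.60 and −2.47, so that every sgRNA was below −1 although they ranged over 3.28. In K562 the 3 abundant sgRNAs stayed at the level of the controls, with changes of −0.16, −0.17 and 0.04, and the score was −0.17. The rare sgRNA went there from 232 counts to 0, which is 64.2-fold lower or more when 3 counts are taken as the limit of detection. That limit leaves out the counting error on day 0, and the upper end of the interval was −5.70. KDM2A and KDM8 were the only demethylase genes with every measured sgRNA at −1 or lower in KARPAS422, against 17.4% of library genes. No demethylase gene met this in K562, where 0.532% of library genes did.

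The H3K4 demethylases had a median score of −0.50 in KARPAS422 and −0.10 in K562, and in KARPAS422 only KDM5C of these 6 genes scored −1 or lower. KDM5C, an H3K4me2/3 demethylase encoded on chromosome X, scored −1.40 in KARPAS422 and −0.58 in K562. Its abundant sgRNAs changed by −1.44, −1.36 and −0.94 in KARPAS422 and by −0.68, −0.21 and −0.49 in K562. Relative to the controls these did not overlap between the lines, but they did when changes were centred on all sgRNAs. The remaining sgRNA was rare, with 55 counts on day 0 in KARPAS422 and 67 in K562, and had 0 counts on day 14 in both. With 3 counts taken as the limit of detection, these are losses of 28.8-fold and 18.5-fold or more, respectively. That limit leaves out the counting error on day 0, and the upper ends of the intervals were −4.50 and −3.87.

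Its closest relatives had higher scores in both lines. KDM5A, a retinoblastoma-binding demethylase of the same substrates, scored −0.92 in KARPAS422, with sgRNAs from −1.54 to −0.83, and −0.17 in K562. KDM5B scored −0.37 and −0.03. KDM5D, which is encoded on chromosome Y, scored −0.19 in KARPAS422, at rank 46 from the highest of 564 genes, and 0.22 in K562. Its sgRNAs changed by −0.22, −0.88, −0.16 and 0.23 in KARPAS422 and by −0.98, 1.16, 0.25 and 0.19 in K562. The sgRNA at 1.16 went from 715 to 1326 counts. Thus the 4 KDM5 genes were spread from −1.40 to −0.19 in KARPAS422 and from −0.58 to 0.22 in K562.

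The amine oxidases that act on H3K4me1/2 showed opposite orders in the lines. KDM1A (LSD1), the catalytic subunit of the CoREST complex, scored −0.14 in KARPAS422, at rank 36 from the highest, and −0.56 in K562, at rank 114 from the lowest. Its 4 sgRNAs changed by 0.07, −0.16, −0.12 and −0.57 in KARPAS422, all within the range of the abundant controls. In K562 they changed by 0.30, −0.77, −0.35 and −1.51, so that a single sgRNA lay below the abundant controls. Its paralog KDM1B (LSD2) scored −0.62 in KARPAS422, with a narrow range from −0.73 to −0.42, and 0.11 in K562. Of 3 KDM1A partners in the library, HDAC1, HDAC2 and PHF21A, none scored −1 or lower in either line, and their median was −0.63 in KARPAS422 and −0.34 in K562.

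Of the 7 genes classed under H3K9 and not H3K36, some of which also act on other lysines, 3 scored −1 or lower in KARPAS422, with a class median of −0.87. KDM4D, an H3K9me2/3 demethylase without the PHD and Tudor domains of its larger relatives, scored −1.44 over 3 sgRNAs (−1.45, −0.60 and −1.44) and −0.25 in K562, where these changed by −0.30, −0.31 and −0.21. The remaining sgRNA had 0 counts on day 0 in KARPAS422 and was not measured there, and went from 55 to 111 counts in K562, a change of 1.26. PHF8, a demethylase of H3K9me1/2 and H4K20me1 that binds H3K4me3, scored −1.21, with sgRNAs at −1.57, −0.99, −0.92 and −1.44, and −0.17 in K562, with sgRNAs at −0.02, −0.32, −0.63 and 0.57. Relative to the controls the lines did not overlap for PHF8, but they did when changes were centred on all sgRNAs. PHF2, an H3K9me2 demethylase related to PHF8, scored −1.14 in KARPAS422 and −1.07 in K562, ranks 164 and 21 from the lowest. The changes were −1.15, −1.12, −1.20 and 0.12 in KARPAS422 and, in the same order, −1.43, −1.42, 0.15 and −0.72 in K562. The first 2 of these sgRNAs were thus at −1 or lower in both lines, and the other 2 differed between them.

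In KARPAS422 the other H3K9 genes were closer to the library median. KDM3A, an H3K9me1/2 demethylase induced by hypoxia, scored −0.87 in KARPAS422, where its sgRNAs ranged over 0.350, and −0.20 in K562, where they spread from −1.14 to 0.92. KDM3B scored −0.59 and −0.74. KDM4E, a small KDM4 family member, scored −0.70 and 0.14. KDM7A, a demethylase of H3K9me2 and H3K27me2, scored −0.47 and 0.05, and 1 of its sgRNAs, with 25 counts on day 0 in K562, was not measured there. In K562 the class median was −0.20.

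KDM4A, KDM4B and KDM4C, which remove methyl groups from both H3K9me3 and H3K36me3, had scores of −1.17, −1.01 and −0.42 in KARPAS422. In K562 all 3 lay at the level of the controls, at 0.06, −0.08 and 0.35. KDM4A was lower in KARPAS422 for each of its sgRNAs, at −1.18, −0.69, −1.49 and −1.16 against 0.66, −0.05, −0.39 and 0.16. The first of these had 81 counts on day 0 in KARPAS422, and its interval ran from −1.70 to −0.67. By score, 87.6% of library genes were lower in KARPAS422 relative to the controls. The KDM4B sgRNAs changed by −0.77, −1.27, −1.24 and −0.00096 in KARPAS422 and by 0.13, −0.15, −0.23 and −0.01 in K562. Its KARPAS422 score, just below −1, thus rests on 2 of 4 sgRNAs. Those against KDM4C changed by −0.53, −0.51, −0.33 and 0.19 in KARPAS422 and by 0.36, 0.25, 0.34 and 0.86 in K562, where KDM4C had the highest score of the 22 genes. Over the 12 sgRNAs of these genes, 5 had a change of −1 or lower in KARPAS422, against 36.9% of the library. In K562 this was 0, against 11.9% of the library.

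The H3K27 demethylases had a class median of −0.20 in KARPAS422, higher than that of H3K4 (−0.50), but with the mean over sgRNAs the values were −0.46 and −0.43. With a minimum of 100 counts, which leaves out a KDM6A sgRNA of 92 counts, the H3K27 median was −0.04. They include the demethylase gene with the lowest score in K562. KDM6A (UTX), an H3K27me2/3 demethylase and subunit of the MLL3/MLL4 complexes, spans 44873188 to 45112779 on the plus strand of chromosome X in hg38. In K562 its sgRNAs went from 214 to 0, from 6821 to 2196, from 6978 to 1814 and from 4598 to 2982 counts, with changes of −7.73, −1.37, −1.67 and −0.36. The score was −1.52, a 2.87-fold loss, at rank 8 from the lowest of 564 genes. In KARPAS422 the same sgRNAs changed by −1.87, −0.35, 0.43 and −0.04, and the score was −0.20. The abundant sgRNA at 0.43 went from 5798 to 12233 counts and was the highest of all demethylase sgRNAs in this line. Each of the 4 sgRNAs was lower in K562 than in KARPAS422. The share of library genes with this pattern was not computed, and 87.6% of them scored lower in KARPAS422.

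KDM6B (JMJD3), an H3K27me2/3 demethylase induced by inflammatory signals, scored −0.62 in KARPAS422 and 0.22 in K562. Its sgRNAs changed by −0.27, −0.72, −0.61 and −0.63 in KARPAS422 and by 0.03, 0.41, −0.19 and 0.82 in K562. Relative to the controls, each of them was lower in KARPAS422, where 87.6% of library genes also scored lower. This did not hold for each of them when changes were centred on all sgRNAs.

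UTY, a relative of KDM6A encoded on chromosome Y with weak demethylase activity, scored −0.02 in KARPAS422, at rank 16 from the highest of 564 genes, and 0.04 in K562. Its sgRNAs changed by −0.53, 0.19, 0.10 and −0.13 in KARPAS422 and by 0.34, −0.86, 0.64 and −0.27 in K562, so that they lay on both sides of 0 in each line. Together, the 8 sgRNAs against KDM5D and UTY, both on chromosome Y, had a median of −0.15 in KARPAS422, against −0.70 for all gene-directed sgRNAs. None of them reached −1 in either line, against 36.9% of the library in KARPAS422 and 11.9% in K562.

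JMJD6, a JmjC protein better known as a lysyl hydroxylase and without an agreed lysine demethylase substrate, scored −1.65 in KARPAS422 and −1.08 in K562, ranks 111 and 20 from the lowest. Its sgRNAs changed by −1.86, −1.73, −1.58 and −0.87 in KARPAS422 and by −1.30, −0.86, −4.99 and −0.59 in K562. All 8 values were below 0. The sgRNA at −4.99 went from 795 to 20 counts, with an interval from −5.76 to −4.41. The same sgRNA went from 891 to 467 counts in KARPAS422. By the median of their sgRNAs, JMJD6 and PHF2 scored −1 or lower in both lines. When centred on all sgRNAs, neither gene did so in either line. JMJD6 was then at −0.97 in KARPAS422 and −0.87 in K562, and PHF2 at −0.45 and −0.86. By the mean, PHF2 did so in neither (−0.84 and −0.86), whereas KDM2A and KDM5C, each with a rare sgRNA at 0 counts in K562, did so in both.

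Several of the largest single losses came from sgRNAs that were rare on day 0. Of the demethylase sgRNAs, 2 lay below the lowest control in KARPAS422 (−2.58), 1 each against KDM2A and KDM5C, and 13.2% of the library did. In K562, 2 lay below the lowest control (−7.15), 1 each against KDM2A and KDM6A, against 0.539% of the library. That control went from 143 counts to 0, and these 2 sgRNAs from 232 and 214 to 0. Their order thus follows day 0 counts and shows no greater loss than that of the control. All the demethylase sgRNAs named here had under 300 counts on day 0. Among sgRNAs with 30 or more but under 300 counts on day 0 in K562, 22 of 55 had 0 counts on day 14, including 3 of 5 demethylase sgRNAs and 1 of 4 controls. Among the 2219 sgRNAs with at least 300 counts, 3 were at 0, none of them against a demethylase. In KARPAS422, 10 of 66 rare sgRNAs were at 0, 1 of them against a demethylase. The part of day 0 abundance in these losses was not tested. With a minimum of 300 counts, which was added after seeing the data, 9 genes still scored −1 or lower in KARPAS422 and 3 in K562, and they were the same genes.

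Between the lines, 19 of 22 demethylase genes scored lower in KARPAS422 than in K562, and 87.6% of library genes did so. The median difference, KARPAS422 minus K562, was −0.74, against −0.58 over all genes. Both medians depend on the zero point, at −0.28 and −0.11 when centred on all sgRNAs and at −0.16 and 0.0031 with library totals alone, and 15 and 13 demethylase genes were then lower in KARPAS422. The difference was −1 or lower for 5 genes, against 27.3% of the library. These were KDM2A (−1.87), KDM8 (−1.61), KDM4A (−1.23), KDM4D (−1.19) and PHF8 (−1.04), of which KDM2A and KDM8 remained under either other zero point, and all but KDM2A with the mean over sgRNAs. The reverse, a difference of 1 or higher, was seen for KDM6A alone (1.33), at rank 4 from the highest of 564 genes, and for 0.887% of the library. KDM1A (0.42) and KDM3B (0.15) were also higher in KARPAS422. With library totals alone, KDM1A reached a difference of 1 as well. Across the 82 demethylase sgRNAs with at least 300 counts on day 0 in both lines, the changes in the 2 lines were only weakly related (Pearson's r = 0.18, Spearman's rho = 0.17), as they were over the 2170 gene-directed sgRNAs of that abundance (r = 0.22, rho = 0.25). Over all 86 measured in both lines, r was 0.60 and rho 0.23. Day 0 abundances were closely correlated between the lines (r = 0.97 on the log2 scale over 87 sgRNAs), and sgRNAs against the same gene are not independent. Single sgRNAs could still differ, such as 1 against KDM4A with 81 counts in KARPAS422 and 284 in K562.

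Set against the writers of the same lysine, that is methyltransferases and, for H3K4 and H3K27, core subunits of their complexes, demethylase genes had higher medians in KARPAS422 for H3K4 and H3K27 and a lower one for H3K36. These are descriptions of medians without a test, and enzymes and subunits were set apart after seeing the data. Of the 10 H3K4 writer genes, the 6 methyltransferases had a median score of −1.59, with 4 at −1 or lower, against −0.50 for the H3K4 demethylases. The subunits ASH2L, RBBP5, WDR5 and DPY30 had a median of −3.31, and all 10 genes together −2.64. For H3K27, the methyltransferases EZH1 and EZH2 scored −1.04 and −3.54 and the subunits EED and SUZ12 −4.22 and −2.19, against a median of −0.20 for KDM6A, KDM6B and UTY. For H3K9 the medians were −1.11 over 6 writers and −0.87 over 7 demethylases. For H3K36 the order was the reverse, at −0.77 over 6 writers, of which SETD2 alone scored −1 or lower (−2.64), and −2.15 over KDM2A and KDM8. The latter median rests on these 2 genes alone, and the role of KDM8 as a histone demethylase is debated. KDM4A, KDM4B and KDM4C, which also act on H3K36, are not included and scored −1.17, −1.01 and −0.42. In K562 the writer medians lay between −0.57 and −0.14.

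The 10 other JmjC proteins of the library, such as JMJD1C, JARID2 and HR, had a median score of −0.47 in KARPAS422 and −0.05 in K562, and 0 of 10 scored −1 or lower in either line. They included KDM2B, the paralog of KDM2A in a PRC1 complex, which scored −0.49 in KARPAS422. To show the scale of the screen, 9 genes that dividing cells need, such as AURKA and BUB3, had a median of −4.59 in KARPAS422 and −0.53 in K562. All 9 scored −1 or lower in KARPAS422 and 2 of 9 did so in K562, and their highest score in KARPAS422 (−2.68) was below that of every demethylase gene. AURKA scored −5.6 in KARPAS422 but 0.37 in K562, and BUB3 −4.84 and −1.88. The median difference of the 9 genes, KARPAS422 minus K562, was −3.73. A K562 score near the controls therefore does not show that a gene is not needed there. Whether line differences of demethylase genes go beyond this difference in scale was not tested.

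RNA-seq of KARPAS422 cells treated with DMSO, the solvent control of experiments with menin and EZH2 inhibitors, gives the level of the targeted genes in the line itself. It comes from 2 separate experiments with 2 libraries each, with 54815080 to 54883332 counts per library in the MI-503 experiment and 12817176 to 18449323 in the drug combination experiment. Whether the libraries came from separate cultures is not stated. For the 20 genes outside chromosome Y, at least 1 CPM (counts scaled to the library total) was found in both libraries for 18 genes in the former and 17 in the latter. The gene that differs is KDM4A, which was listed at 0 in all 16 libraries of the drug combination experiment. It has no level there, so this is not read as a difference in detection. KDM5B, at 0.182 and 0.383 CPM in the MI-503 experiment and 0.234 and 0.596 CPM in the other, was almost silent. KDM4E was listed at 0 in 3 of the 4 libraries, with 2 counts in the other library. KDM4E nevertheless scored −0.70 in the screen, which is close to the library median of −0.69, and KDM5B scored −0.37.

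The level of a gene was at most weakly related to its screen score. KDM8, with the lowest score, had 2.30 and 2.52 CPM in the MI-503 experiment (mean 2.41 ± 0.157, SD, n = 2) and 8.35 and 8.94 CPM in the other. This is 0.598 and 2.15 CPM per kilobase of exon, against 17.4 and 21.6 for KDM2A and 10.6 and 10.5 for KDM1A, whose scores were −2.04 and −0.14. KDM5C had 230 ± 2.02 CPM and KDM6A 77.7 ± 0.151 CPM (SD, n = 2) in the MI-503 experiment. Across the 20 genes (19 in the drug combination experiment, without KDM4A), the score and the level per kilobase had a Spearman's rho of −0.095 in the MI-503 experiment and −0.21 in the drug combination experiment, over libraries of 1 cell line. KDM4A had 91.4 and 93.5 CPM in the MI-503 experiment but was listed at 0 in all 16 libraries of the drug combination table, SuDHL10 included, so no level is taken from that table.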

How the data were processed

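For the knockout screen, the authors cut reads down to the sgRNA with cutadapt and assigned them with MAGeCK, which left raw counts for each sgRNA in the deposited tables. RNA-seq tables as deposited hold raw counts of reads per gene, from alignment to hg38 (HISAT2, 2.1.0) and featureCounts (1.6.1). Strand setting and annotation were not given in the sources used here. CUT&Tag samples were not analysed here.

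From these counts, sgRNAs with fewer than 30 counts on day 0 were dropped for that line. Counts were scaled to equal library totals, a pseudocount of 1 was added, and log2 changes were centred on 48 controls per line. Counting intervals are Clopper-Pearson intervals (scipy 1.17.1). A loss to 0 counts was bounded with 3 counts per library, without the counting error on day 0. CPM were scaled by library totals or, as an alternative, by TMM (edgeR 4.0.16). Exon lengths and positions come from GENCODE v44 on hg38, counted from 1. RNA levels of genes on chromosome Y were left out. Scripts were tested on simulated counts. The members, classes and lists were chosen with earlier results of these data known. Every member gene is named with its score. Single sgRNAs are given for genes that scored at or beyond −1 or 1 in either line, for the 3 lowest and 3 highest scores of each line, for genes with an sgRNA outside the control range in both lines, and for genes whose sgRNAs differed by more than 3 within a line.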

Additional observations from a re-analysis of the deposited data

Results flagged for a closer look

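For 8 demethylase genes the scores in the lines lay on opposite sides of 0, below it in KARPAS422 and above it in K562 for each, and the difference (KARPAS422 minus K562) was not tested, since each line has 1 library per day. These signs depend on the zero point. When changes were centred on all sgRNAs, KDM4A and KDM4E of these 8 still had opposite signs, and the other 6 were above 0 in both lines. KDM4A differed by −1.23, the most of these. KDM6B differed by −0.84, KDM4E by −0.84, KDM4C by −0.77, KDM1B by −0.73, KDM7A by −0.52 and KDM5D by −0.41. UTY differed by −0.056.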

How the results depend on the processing

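In KARPAS422 the zero point changed the counts most. Centring on the median of all sgRNAs in place of the controls raised every change by 0.683 in KARPAS422 and by 0.216 in K562, and library totals alone raised them by 0.769 and 0.186. The order of genes and their ranks in the library did not depend on this. With the former, 11 sgRNAs and 2 genes (KDM2A and KDM8) were at −1 or lower in KARPAS422, and 1 gene (KDM6A) in K562. With the latter these numbers were 10, 2 and 1, and the genes were the same. In KARPAS422 the class medians became 0.19 for H3K4, −0.19 for H3K9, −0.32 for H3K9 and H3K36, −1.46 for H3K36, 0.49 for H3K27 and −0.97 for JMJD6 when centred on all sgRNAs, and 0.27, −0.10, −0.24, −1.38, 0.57 and −0.89 with library totals alone. The median over all 22 genes became −0.10 and −0.016. Without the lowest sgRNA of each gene, 1 gene (KDM6A) scored −1 or lower in K562 and 7 in KARPAS422. With the mean over sgRNAs these numbers were 4 and 8. In K562, where a rare sgRNA of each went to 0, this mean moved KDM2A from −0.17 to −2.03, KDM5C from −0.58 to −1.86 and KDM6A from −1.52 to −2.78, more than the zero point did. A pseudocount of 5, no minimum and a minimum of 100 counts left the 9 and 3 genes the same. The number of genes detected by RNA-seq was 17 or 18 under each alternative, replicates left out in turn included. The genes at −1 or lower stayed below 0 under each alternative. Scores nearer to 0, such as that of KDM1A in KARPAS422 (from −0.20 to 0.63), crossed it with the zero point. Values of single sgRNAs rest on 1 library per day, and the spread between cultures is unknown.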
